A study of Mus musculus with 18 samples.

Results

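Chemokines and their receptors were followed as a gene family in whole kidneys of Dp16, Dp16 2xIFNRs and wild-type mice. Members were the protein-coding genes whose symbols start with Ccl, Cxcl, Xcl, Cx3cl, Ccr, Cxcr, Xcr, Cx3cr or Ackr followed by a digit, which took 60 of the 55385 genes in the tables. Of these, 39 passed a filter on low counts and were tested. That filter needs about 10 counts in at least 6 libraries, so a gene can pass through 1 group where it is high, and counts over the 39 describe tested genes and not the whole family.

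Chemokines are small secreted or membrane-bound proteins that direct the movement of leukocytes and, for some members, of other cells. They bind receptors coupled to inhibitory G proteins, while the atypical receptors of the Ackr group take up chemokines without that signalling. Kidney epithelium, vessels and resident macrophages are known sources of chemokines, and several CXC ligands are classical targets of interferon.

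PolyA RNA of 18 kidneys was sequenced, with 6 animals per genotype, 3 of them male and 3 female. Dp16 mice, aged 17.1 to 18.0 weeks, carry a duplicated stretch of mouse chromosome 16 that corresponds to much of human chromosome 21, and serve as a model of trisomy 21. Dp16 2xIFNRs mice, aged 17.7 to 18.0 weeks, share that duplication but have 2 copies, the usual number, of the 4 genes for interferon receptor chains inside it (Ifnar1, Ifnar2, Ifngr2 and Il10rb). Wild-type mice were C57BL/6J, aged 17.1 to 18.0 weeks. No treatment is given for any group, and the strain background of the duplicated groups is not given in the sources used here. The change of copy number is in every cell of the animal, so no cell type is singled out by the model. None of the 60 members lies on chromosome 16 (0 of 60), so no member is itself duplicated.

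Libraries held 42157790 to 57814587 gene counts, and 0 counts over all of them allow a level of up to 0.00323 CPM, a limit of 3 counts that covers counting error only. Levels within a gene are given as CPM, counts over the library's total after scaling by TMM (trimmed mean of M values), and levels between genes as RPKM, which divides by gene length. Ifnar1, Ifnar2, Ifngr2 and Il10rb were all called higher in Dp16 against wild-type, with log2 folds of 0.58, 0.80, 0.76 and 0.605. In Dp16 2xIFNRs against wild-type their folds were 0.16, 0.20, 0.13 and -0.01, and Ifnar2 was still called (edgeR adjusted p = 0.0368). In Dp16 2xIFNRs against Dp16, Ifnar2, Ifngr2 and Il10rb were called lower and Ifnar1 was not (-0.42, edgeR adjusted p = 0.113). Xist and Ddx3y matched the labelled sex of all 18 libraries. Kidney marker genes summed to 14150 to 15820 CPM in Dp16, 15190 to 17340 CPM in Dp16 2xIFNRs and 14940 to 16680 CPM in wild-type. The summed CPM of all 60 members had a median of 546 in Dp16 (472 to 618), of 519 in Dp16 2xIFNRs (467 to 610) and of 532 in wild-type (455 to 632), so the groups overlapped in total.

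Promoter sequences are shown for 4 of the genes that differed from wild-type, since 2 neighbours (Ccl6 and Ccl9) and Cxcl9 were higher in Dp16 and Cxcl14 was lower. Each runs 5′ to 3′ on the gene's own strand from 250 bases before to 50 bases after the RefSeq start (GRCm38.p6). Capitals mark matches, on either strand, to an ISRE core (GAAANNGAA), a GAS element (TTCNNNGAA), a kappa B site (GGNNTTTCC), a PU.1 box (GAGGAAG) or a TATA box (TATAAA). Overlapping matches are merged into 1 run of capitals.
Ccl6, minus strand, chr11:83593038-83593337: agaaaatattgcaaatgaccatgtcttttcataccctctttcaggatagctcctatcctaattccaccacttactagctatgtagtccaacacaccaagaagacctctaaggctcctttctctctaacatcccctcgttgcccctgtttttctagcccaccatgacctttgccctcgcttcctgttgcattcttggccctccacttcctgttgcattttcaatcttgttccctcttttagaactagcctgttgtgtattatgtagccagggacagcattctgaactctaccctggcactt
Ccl9, minus strand, chr11:83578587-83578886: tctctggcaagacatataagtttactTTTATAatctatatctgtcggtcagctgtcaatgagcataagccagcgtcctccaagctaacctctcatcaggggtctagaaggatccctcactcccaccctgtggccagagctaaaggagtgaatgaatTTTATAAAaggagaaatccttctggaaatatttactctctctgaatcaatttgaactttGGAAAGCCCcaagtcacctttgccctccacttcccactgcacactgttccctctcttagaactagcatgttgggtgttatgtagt
Cxcl9, minus strand, chr5:92328030-92328329: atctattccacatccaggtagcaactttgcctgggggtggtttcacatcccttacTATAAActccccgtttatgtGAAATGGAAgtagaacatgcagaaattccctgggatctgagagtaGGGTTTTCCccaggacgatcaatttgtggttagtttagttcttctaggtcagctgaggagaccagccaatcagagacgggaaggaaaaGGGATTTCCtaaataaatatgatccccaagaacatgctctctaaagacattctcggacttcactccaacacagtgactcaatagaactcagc
Cxcl14, minus strand, chr13:56296502-56296801: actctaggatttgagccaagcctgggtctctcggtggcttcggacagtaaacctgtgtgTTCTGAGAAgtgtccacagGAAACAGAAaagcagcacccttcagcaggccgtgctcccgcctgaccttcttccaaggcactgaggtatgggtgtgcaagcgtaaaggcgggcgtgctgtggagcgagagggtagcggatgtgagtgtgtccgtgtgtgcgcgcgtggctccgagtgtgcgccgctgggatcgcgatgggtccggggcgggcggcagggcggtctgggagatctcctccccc

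The Ccl9 promoter held 1 kappa B match, GGAAAGCCC on the opposite strand at -35, where the last base before the start is -1. It also held 3 TATA matches, of which a pair at -94 and -92 overlap on opposite strands. The Cxcl14 promoter held a GAS match, TTCTGAGAA at -191, and an ISRE core match, GAAACAGAA at -172. The Cxcl9 promoter held 2 kappa B matches, GGGTTTTCC at -130 and GGGATTTCC at -42, an ISRE core match, GAAATGGAA at -175, and a TATA match at -195. The Ccl6 promoter held no match to the 5 motifs in this window, nor did that of Cx3cr1, and that of Ccr2 held 1 ISRE core match, TTCTCTTTC on the opposite strand at -86. Of 32851 RefSeq promoters of this length, 8.56% held the ISRE core, 8.3% the GAS element, 5.82% the kappa B site, 13.63% the PU.1 box and 13.62% the TATA box. Among the 53 promoters listed for 46 of the 60 members, 8 held the ISRE core, 4 the GAS element, 9 the kappa B site, 8 the PU.1 box and 15 the TATA box. A first search used forms of the ISRE core and the kappa B site that were longer by 1 base, under which the Cxcl9 and Ccr2 promoters held no match to either. A match is a run of letters and not a measured binding site.

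The members lie on 11 chromosomes, with 14 on chromosome 11, 14 on chromosome 9 and 10 on chromosome 5. Ccl5 (chr11:83525778-83530518, minus strand, GRCm38), Ccl9 (chr11:83572919-83578636) and Ccl6 (chr11:83587882-83593087) follow each other in 1 cluster of CC ligands. Ccr2 (chr9:124101950-124113557) and Cx3cr1 (chr9:119901616-120069879) both lie on chromosome 9. Cxcl9 is on chromosome 5 (chr5:92321347-92328079) and Cxcl14 on chromosome 13 (chr13:56288643-56296551).

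The highest levels per length belonged to 4 ligands and 1 atypical receptor. Cx3cl1, the membrane-bound ligand of the receptor Cx3cr1, had 33.4 ± 4.5 RPKM in Dp16, 34.4 ± 6.37 RPKM in Dp16 2xIFNRs and 31.3 ± 3.92 RPKM in wild-type (mean ± SD, n = 6 each). Cxcl12, the stromal ligand of Cxcr4, had 27.2 ± 5.57, 25.4 ± 7.13 and 27.9 ± 5.6 RPKM in Dp16, Dp16 2xIFNRs and wild-type. Cxcl16, a membrane-bound ligand of Cxcr6 and a scavenger receptor, followed with 22.0 ± 4.62, 20.2 ± 3.23 and 20.0 ± 2.59 RPKM in the same order. Cxcl14, an epithelial CXC ligand, had 16.8 ± 5.97, 16.4 ± 6.86 and 22.5 ± 6.74 RPKM in that order of groups. Ackr3, the atypical receptor that takes up Cxcl12, was the highest receptor, with 16.1 ± 3.35, 18.2 ± 3.0 and 15.8 ± 2.43 RPKM. Within each group, the ranges of neighbours in this order overlapped.

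A step below came Ccl28, a mucosal CC ligand, with a mean over all libraries of 5.87 RPKM, Ccl5 with 5.51, Ccl6 with 3.95, Ccl21a with 3.11 and Cxcl10 with 3.07 RPKM. Cxcr4, the receptor of Cxcl12, averaged 2.91 RPKM, the highest among the signalling receptors. The other tested members spanned 2.30 RPKM for Ccl25 to 0.0389 RPKM for Ccr9, its receptor. Ccl28 varied widely between animals, with 5.32 to 59.0 CPM in Dp16 2xIFNRs, 15.4 to 29.0 CPM in Dp16 and 8.36 to 37.7 CPM in wild-type.

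**Figure D1:**
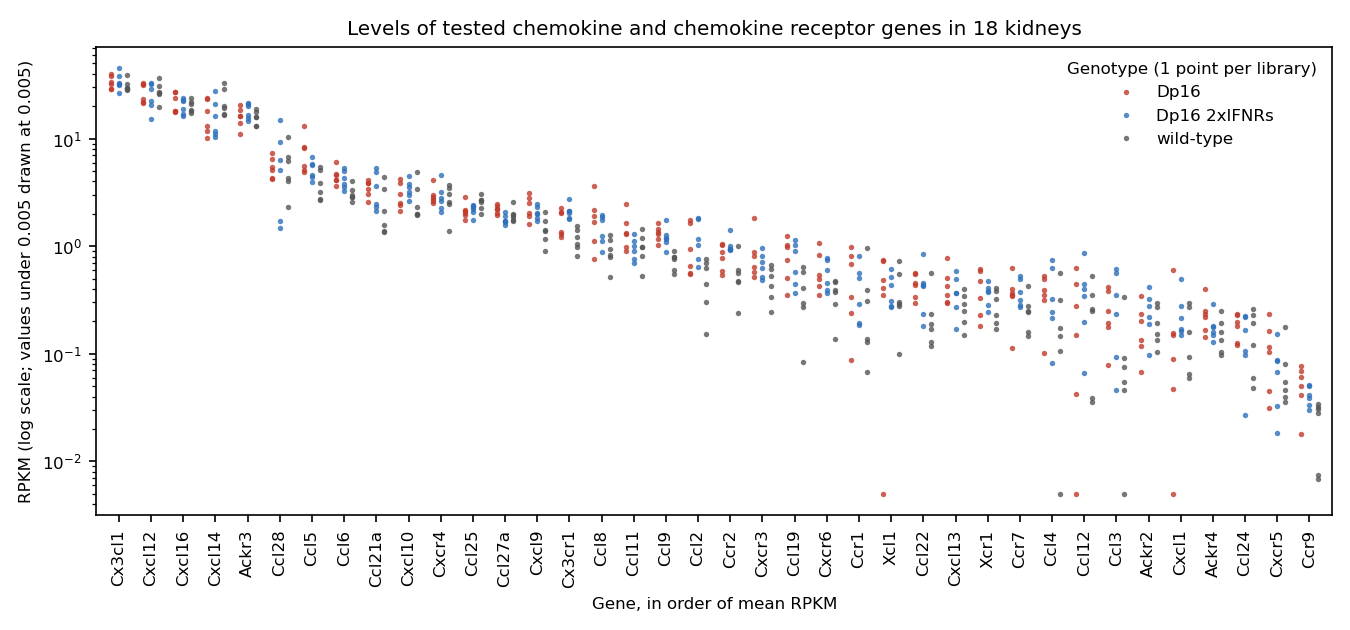
RPKM (log scale) of tested chemokine and chemokine receptor genes, in order of mean RPKM, with 1 point per library and the groups side by side as Dp16, Dp16 2xIFNRs and wild-type. 5 genes, Cx3cl1, Cxcl12, Cxcl16, Cxcl14 and Ackr3, lie above 10 RPKM in every library, and Ccr9 averages 0.0389 RPKM.

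21 members stayed below the filter. Ccl21b, Ccl26 and Ccr1l1 had 0 counts in all 18 libraries. The Ccl21b transcript shares 71.7% of its 50-base windows with Ccl21a, so reads from the shared windows cannot be told apart, and its 0 counts may miss such reads. The neutrophil attractants Cxcl2, Cxcl3 and Cxcl5 had 47, 9 and 17 counts over all libraries, their receptors Cxcr1 and Cxcr2 had 4 and 101, and Cxcl15 had 10. Receptors known from lymphocytes, eosinophils and skin-homing cells were also sparse, with 33 counts for Ccr3, 62 for Ccr4, 57 for Ccr6, 22 for Ccr8 and 168 for Ccr10. Among CC ligands, Ccl1 had 22 counts, Ccl7 115, Ccl17 128, Ccl20 35 and Ccl27b 3. Cxcl17, a mucosal ligand, had 39 and Ackr1, the erythroid and venular chemokine binder, 89. Ccl7, a monocyte attractant, had 4 to 21 counts per library in Dp16 2xIFNRs, 0 to 12 in Dp16 and 0 to 5 in wild-type, with no test. In CPM, all 6 Dp16 2xIFNRs libraries (0.101 to 0.36) lay above the highest wild-type library (0.0862). Of all tested genes 1.04% did so, and the share among genes under the filter was not counted. With 0 to 5 counts in wild-type, a few reads decide whether such ranges meet.

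The first comparison asks what the duplication does to the family. In Dp16 against wild-type, 4 members rose, the CC ligands Ccl5, Ccl6 and Ccl9 and the interferon-inducible Cxcl9, and 1 fell, Cxcl14 (edgeR quasi-likelihood test, Benjamini-Hochberg adjusted p under 0.05 over all tested genes, n = 6 per group). These 5 are 12.8% of the tested members, against 4.23% of all 17575 tested genes called in either direction (3.17% higher and 1.06% lower). At an unadjusted p under 0.05, 16 members were higher and 2 lower, against 17.1% of all genes in either direction. The median log2 fold of the tested members was 0.515 (quartiles 0.09 and 0.737), against -0.01 over all genes (quartiles -0.11 and 0.14), and 32 of the 39 folds were above 0.

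Ccl9, a CC ligand known to act on Ccr1-bearing myeloid cells, had 2.90, 3.98 and 5.16 CPM as its lowest, median and highest value in Dp16, against 1.75, 2.31 and 2.89 CPM in wild-type. Every Dp16 library lay above every wild-type library, as did 1.06% of all tested genes, while 0.239% lay wholly below. Its log2 fold was 0.82 ± 0.16 (± SE), with an edgeR adjusted p of 0.00563. Ccl5, a ligand made largely by T and NK cells, had a lowest, median and highest level of 2.67, 3.54 and 6.65 CPM in Dp16, against 1.42, 1.92 and 3.04 CPM in wild-type. Its groups overlapped at the low end of Dp16, and its log2 fold was 0.87 ± 0.21 (edgeR adjusted p = 0.0235).

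Ccl6, a myeloid CC ligand known in rodents, ran from 4.86 to 8.44 CPM in Dp16 with a median of 6.45, against 3.57 to 6.18 CPM in wild-type with a median of 4.30. The groups overlapped, and the log2 fold was 0.52 ± 0.15 with an edgeR adjusted p of 0.0495, just under the threshold. Cxcl9, a ligand of Cxcr3 that interferon gamma induces, ran from 4.76 to 8.77 CPM in Dp16 (median 6.60), against 2.54 to 5.86 CPM in wild-type (median 4.32). Its ranges overlapped too, and its log2 fold of 0.63 ± 0.18 had an edgeR adjusted p of 0.0482. The other tested ligand of that receptor, Cxcl10, had a fold of 0.07 ± 0.21 (adjusted p = 0.908), from 3.37, 4.15 and 6.12 CPM in Dp16 against 2.89, 3.49 and 7.19 CPM in wild-type.

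Cxcl14 ran from 19.1 to 42.5 CPM in Dp16 (median 28.2), against 32.6 to 58.4 CPM in wild-type (median 36.7). The groups overlapped over both sexes, but the 3 Dp16 males had 19.1, 22.2 and 25.4 CPM, against 32.6, 33.0 and 37.7 CPM in the 3 wild-type males. Females had 31.0, 41.2 and 42.5 CPM in Dp16, against 35.7, 51.0 and 58.4 CPM in wild-type, and these ranges met. The share of all genes whose ranges of 3 males do not meet was not counted. A test of whether the fall differed between males and females did not call Cxcl14 (log2 fold -0.29 ± 0.25, edgeR adjusted p = 0.739). With sex in the fit, the log2 fold was -0.49 ± 0.13 (edgeR adjusted p = 0.0355), and without sex in the fit it was -0.45 (adjusted p = 0.537).

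**Figure D2:**
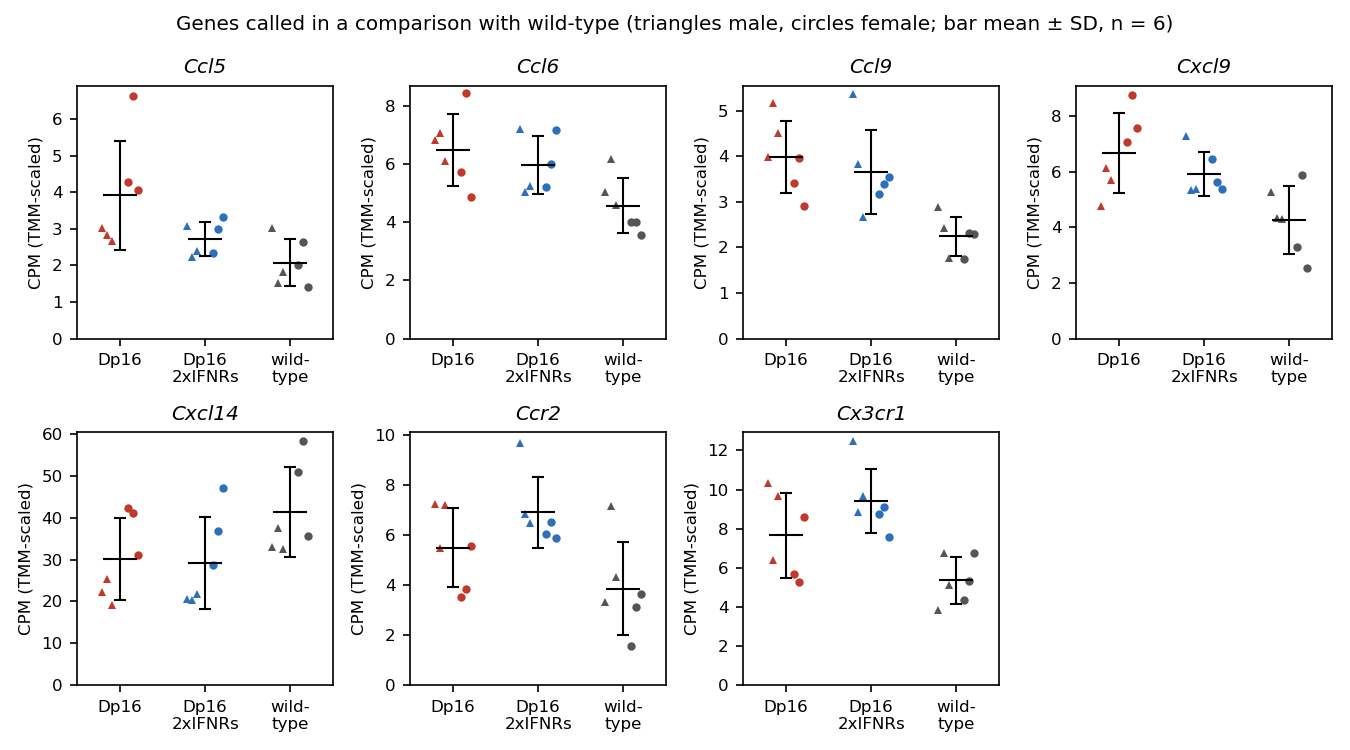
TMM-scaled CPM of genes called in a comparison with wild-type, per library, with males as triangles, females as circles and the bar at the mean ± SD of 6 animals, in Dp16, Dp16 2xIFNRs and wild-type. Every Dp16 value of Ccl9 (2.90 to 5.16 CPM) and every Dp16 2xIFNRs value of Cx3cr1 (7.56 to 12.5 CPM) lies above the wild-type range, while Cxcl14 is lower in both duplicated groups.

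By role, 10 inflammatory CC ligands were tested in Dp16 against wild-type, of which 3 rose and 0 fell, with a median log2 fold of 0.75. Among those not called, Ccl3, a macrophage ligand, had 1.24 ± 0.68, the monocyte attractant Ccl2 had 0.98 ± 0.40 and Ccl8 had 0.98 ± 0.34. The fold of Ccl3 rests on 0 to 24 counts per library. Of 6 homing CC ligands 0 were called, with a median fold of 0.37. Ccl21a, which guides Ccr7-bearing cells to lymphoid tissue, came closest, with 2.28, 3.14 and 3.47 CPM in Dp16 against 1.27, 1.62 and 3.71 CPM in wild-type and a fold of 0.62 ± 0.18 (edgeR adjusted p = 0.0542). Ccl19, the other Ccr7 ligand, had a fold of 1.10 ± 0.41 from a level of at most 1.06 CPM in any library. Of the 2 tested ligands of Cxcr3 1 rose, the only tested ligand of Cxcr2, Cxcl1, had a fold of 0.21 ± 0.61, and of the 6 other CXC, XC and CX3C ligands 0 rose and 1 fell.

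All 5 tested CC receptors had folds above 0 in Dp16, from 0.51 to 1.14, and 0 were called. Ccr9 had the fold of 1.14 ± 0.39 and Ccr7 that of 0.51 ± 0.34, with Ccr1 at 0.72 ± 0.31 and Ccr2 at 0.52 ± 0.20. The fold of Ccr9 rests on 2 to 21 counts per library. Of 6 CXC, XC and CX3C receptors 0 were called, and the T cell receptor of Cxcl9, Cxcr3, had 0.921, 1.22 and 3.08 CPM in Dp16 against 0.452, 0.831 and 1.12 CPM in wild-type, with a fold of 0.80 ± 0.27 (adjusted p = 0.1). The 3 tested atypical receptors had folds of -0.10 (Ackr2), -0.01 (Ackr3) and 0.54 (Ackr4), with 0 called.

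The number of members called in Dp16 depended on single libraries. It was 1 without wild-type replicate 4, and 2 without wild-type replicate 2, Dp16 replicate 3 or Dp16 replicate 6. It was 3 without wild-type replicate 1 or 6, Dp16 replicate 1 or 5, or Dp16 2xIFNRs replicate 2, 4 or 6, which are part of the same fit. Ccl9 was called in all 18 fits with 1 library left out. Ccl5 lost its call in 4 of them (without wild-type replicate 2, 4 or 6 or Dp16 replicate 3) and Cxcl14 in 8, while Ccl6 and Cxcl9, which lay just under the threshold, lost theirs in 14 and 15.

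The second comparison sets Dp16 2xIFNRs against the same wild-type libraries, and asks what the duplication does at 2 copies of the interferon receptor genes. Again 4 members rose, among them Ccl9 and the receptors Ccr2 and Cx3cr1, and 1 fell, Cxcl14. The 5 are 12.8% of the tested members, against 4.79% of all tested genes in either direction (3.17% higher and 1.61% lower). At an unadjusted p under 0.05, 11 members were higher and 2 lower, against 18.2% of all genes. The median log2 fold was 0.415 (quartiles 0.08 and 0.69), against 0.01 over all genes.

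Cx3cr1, the receptor of monocytes and kidney macrophages for Cx3cl1, had a lowest, median and highest level of 7.56, 8.99 and 12.5 CPM in Dp16 2xIFNRs, against 3.85, 5.20 and 6.76 CPM in wild-type. These ranges did not overlap, and the log2 fold was 0.80 ± 0.17 (edgeR adjusted p = 0.00871). Among all tested genes, 1.04% lay wholly above wild-type in this comparison and 0.529% wholly below.

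Ccr2, the receptor that brings inflammatory monocytes out of the blood, had 5.91, 6.51 and 9.71 CPM in Dp16 2xIFNRs, against 1.57, 3.50 and 7.16 CPM in wild-type. The ranges overlapped through 1 wild-type male at 7.16 CPM, and the log2 fold was 0.88 ± 0.20 (edgeR adjusted p = 0.0139). Without sex in the fit its fold was 0.84 (adjusted p = 0.158). Its main ligand Ccl2 had 0.497, 0.908 and 1.44 CPM in Dp16 2xIFNRs, against 0.121, 0.444 and 0.607 CPM in wild-type, and a fold of 1.22 ± 0.40 that was not called (adjusted p = 0.0901).

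Ccl9 had 2.68, 3.47 and 5.37 CPM in Dp16 2xIFNRs, against 1.75, 2.31 and 2.89 CPM in wild-type, with an overlap at the low end of Dp16 2xIFNRs. Its log2 fold was 0.70 ± 0.16 (edgeR adjusted p = 0.0139). Cxcl14 had 20.3, 25.2 and 47.2 CPM in Dp16 2xIFNRs, against 32.6, 36.7 and 58.4 CPM in wild-type, and fell by 0.54 ± 0.13 on the log2 scale (edgeR adjusted p = 0.0176). The 3 males had 20.3, 20.5 and 21.7 CPM in Dp16 2xIFNRs, against at least 32.6 CPM in wild-type males. Here too the fall was not called as different between males and females (log2 fold -0.36 ± 0.25). Without sex in the fit, neither Ccl9 (0.70, adjusted p = 0.0589) nor Cxcl14 (-0.50, adjusted p = 0.441) was called.

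Ccl5, Cxcl9 and Ccl6, called in Dp16, were not called in Dp16 2xIFNRs against wild-type. Ccl5 had 2.23, 2.70 and 3.32 CPM there and a fold of 0.38 ± 0.21 (adjusted p = 0.363). Cxcl9 had 5.33, 5.50 and 7.27 CPM and a fold of 0.46 ± 0.18 (adjusted p = 0.148). Ccl6 had 5.05, 5.62 and 7.22 CPM and a fold of 0.40 ± 0.15 (adjusted p = 0.129). By role, 1 of 10 inflammatory CC ligands, 0 of 6 homing ligands, Ccr2 among the CC receptors and 1 of 6 CXC, XC and CX3C receptors rose, and 0 of 3 atypical receptors were called. Of the ligands of Cxcr3, 0 of 2 were called, and of the 6 other CXC, XC and CX3C ligands 0 rose and 1 fell.

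Both comparisons use the same wild-type libraries, so they are not independent of each other. A gene called in 1 of them and not in the other is not thereby shown to differ between the duplicated groups, which the third comparison tests.

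**Figure D3:**
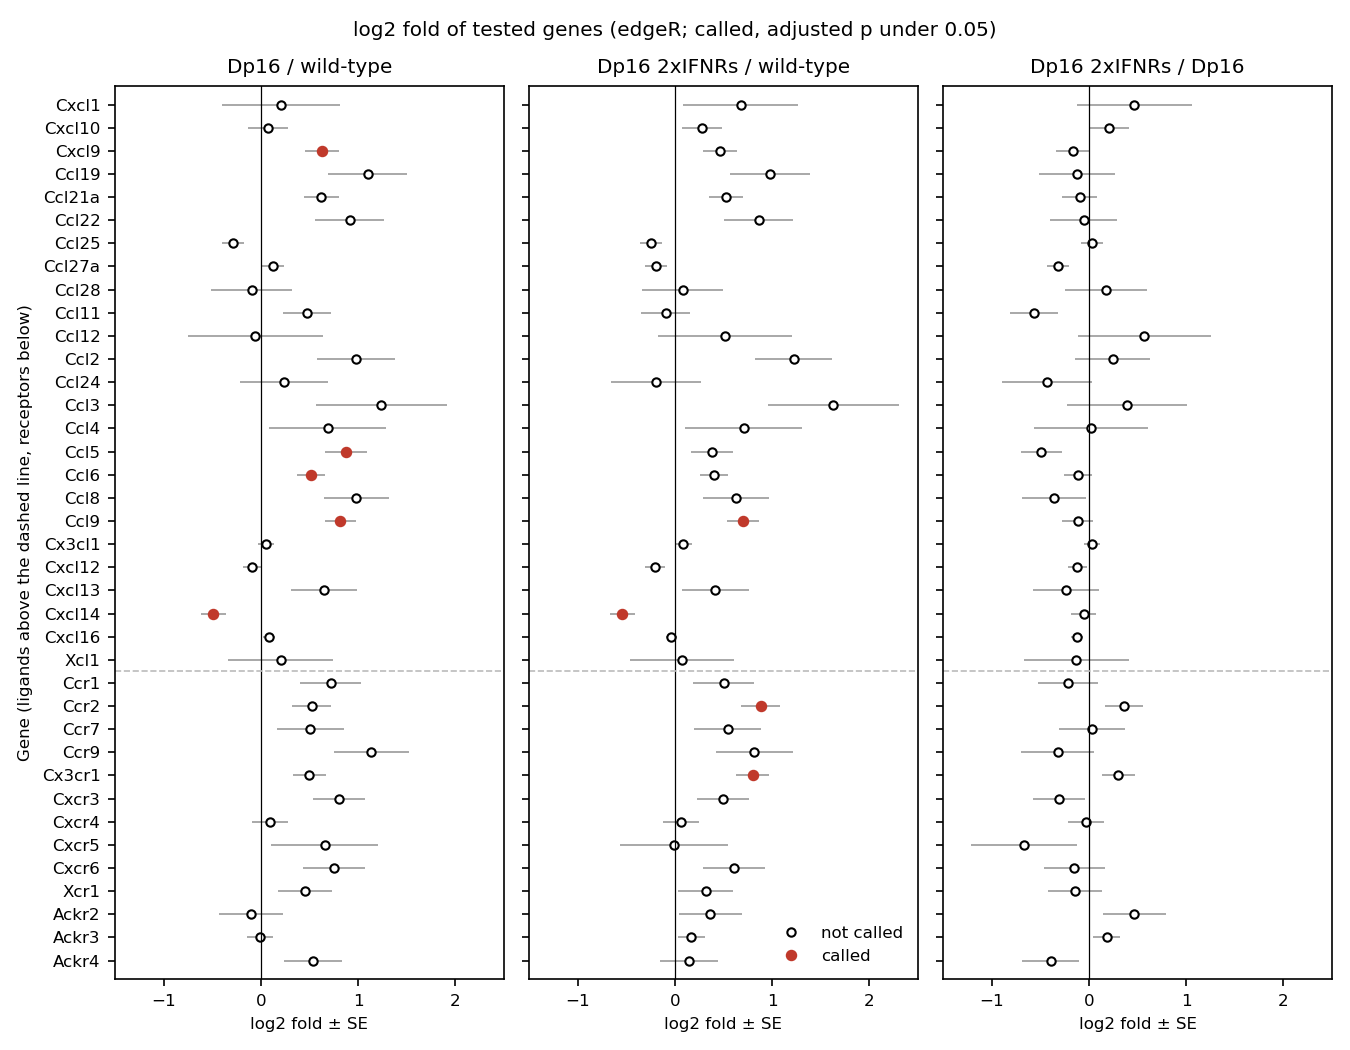
Log2 fold ± SE of tested genes (edgeR) for Dp16 over wild-type, Dp16 2xIFNRs over wild-type and Dp16 2xIFNRs over Dp16, ligands above the dashed line and receptors under it, with called genes filled. Ccl9 and Cxcl14 are filled in both comparisons with wild-type and 0 genes between the duplicated groups, where folds run from -0.66 to 0.57.

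In Dp16 2xIFNRs against Dp16, where the receptor genes differ in copy number, 0 members were called, against 0.0171% of all tested genes (3 lower and 0 higher), and DESeq2 also called 0. At an unadjusted p under 0.05, 1 member was higher and 3 were lower, against 4.71% of all genes. The lower ones were Ccl5, Ccl11 and Ccl27a. Ccl5 had 2.23, 2.70 and 3.32 CPM in Dp16 2xIFNRs against 2.67, 3.54 and 6.65 CPM in Dp16, with a log2 fold of -0.49 ± 0.21. Ccl11, the eosinophil attractant eotaxin, had 0.773, 1.01 and 1.32 CPM in Dp16 2xIFNRs against 1.01, 1.45 and 2.55 CPM in Dp16, with a fold of -0.57 ± 0.25. Ccl27a, an epithelial ligand of Ccr10, had 2.52, 2.65 and 3.24 CPM in Dp16 2xIFNRs against 3.18, 3.26 and 3.81 CPM in Dp16, with a fold of -0.32 ± 0.12.

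The edgeR adjusted p of these 3 was 0.85, and each pair of ranges overlapped. No tested member was wholly above or wholly below Dp16, as were 0.0341% and 0.0455% of all genes. The genes called against wild-type had folds between the duplicated groups of -0.12 ± 0.16 (Ccl9), -0.17 ± 0.18 (Cxcl9), -0.11 ± 0.14 (Ccl6), -0.06 ± 0.13 (Cxcl14), 0.36 ± 0.20 (Ccr2) and 0.30 ± 0.17 (Cx3cr1). The median fold of the tested members was -0.11, against 0.00 over all genes.

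In males against females, 2 members were higher and 5 lower, which is 17.9% of those tested, against 38.8% of all genes (19.0% higher and 19.7% lower). At an unadjusted p under 0.05, 3 members were higher and 7 lower, against 46.5% of all genes. The members' share is below that background.

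Cxcl16 had 49.9 ± 2.28 CPM in males and 61.4 ± 5.81 CPM in females (mean ± SD, n = 9 each). Males spanned 44.6 to 52.5 CPM and females 54.2 to 71.2 CPM, with no overlap, and the log2 fold was -0.30 ± 0.05 (edgeR adjusted p = 9.37e-05). The share of all tested genes without overlap between the sexes was not counted. Cxcl14 had 25.8 ± 6.81 CPM in males and 41.4 ± 9.62 CPM in females, a log2 fold of -0.71 ± 0.11 (edgeR adjusted p = 2.07e-05). Ccr1, a receptor of Ccl3, Ccl5 and Ccl9 on myeloid cells, had 0.544 ± 0.26 CPM in males and 1.82 ± 0.66 CPM in females, the largest difference among the called members at a log2 fold of -1.76 ± 0.26 (edgeR adjusted p = 2.04e-05).

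Cxcl12 had 165 ± 27.7 CPM in males and 217 ± 20.2 CPM in females (log2 fold -0.40, edgeR adjusted p = 0.000527). Ccl21a had 2.04 ± 0.634 CPM in males and 3.31 ± 0.754 CPM in females (log2 fold -0.74, edgeR adjusted p = 0.00044). Ccl25, the gut and thymus ligand of Ccr9, was higher in males, with 4.03 ± 0.589 CPM against 3.16 ± 0.46 CPM in females (log2 fold 0.35, edgeR adjusted p = 0.00563). Ccr2 was also higher in males, with 6.43 ± 1.86 CPM against 4.42 ± 1.66 CPM in females (log2 fold 0.58, edgeR adjusted p = 0.00798). Cell markers differed between the sexes as well, with 7 of 10 endothelial markers lower and 0 higher in males, 7 of 10 kidney tubule and glomerulus markers lower and 1 higher, and 1 of 20 macrophage and dendritic cell markers lower and 0 higher, and their part in these differences was not tested.

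**Figure D4:**
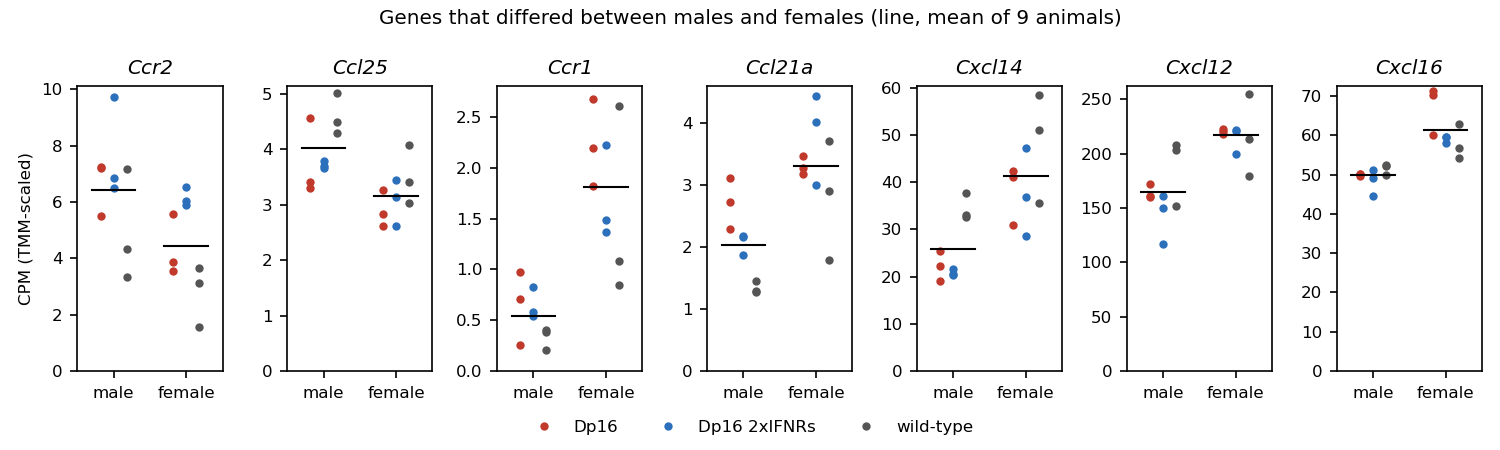
TMM-scaled CPM of the members that differed between males and females, with 1 point per library coloured by genotype and a line at the mean of 9 animals. Cxcl16 spans 44.6 to 52.5 CPM in males and 54.2 to 71.2 CPM in females, while Ccl25 and Ccr2 are the 2 genes with the higher male mean.

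Whether the genotype difference itself differed between males and females was tested as an interaction. For Dp16 against wild-type 0 members were called, against 0.0171% of all genes (0.0114% higher and 0.00569% lower). At an unadjusted p under 0.05, 1 member was higher and 3 were lower, against 7.85% of all genes, and these 4 (Ccl21a, Ccl5, Cxcl16 and Cxcl9) had an adjusted p of 0.631. For Dp16 2xIFNRs against wild-type 0 members were called, against 0.00569% of all genes, and 0 had an unadjusted p under 0.05, against 3.53%. Ccl5 had 4.06, 4.28 and 6.65 CPM in Dp16 females against 1.42, 2.02 and 2.64 CPM in wild-type females. In males it had 2.67, 2.83 and 3.01 CPM in Dp16 against 1.51, 1.83 and 3.04 CPM in wild-type. The female ranges did not overlap and the male ranges did, yet the interaction test did not call the difference. The share of all genes whose ranges of 3 females do not overlap was not counted.

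Genes that act with the family were read from lists of the pathway. Of all tested genes, 3.17% rose in each of the comparisons with wild-type. Of 33 genes of chemokine receptor signalling, 6 rose and 0 fell in Dp16 against wild-type, with a median log2 fold of 0.28. They include Rac2, a leukocyte GTPase that drives migration, at 0.73 ± 0.12, and Dock2, which activates Rac in leukocytes, at 0.62 ± 0.15. In Dp16 2xIFNRs against wild-type 7 of the 33 rose and 0 fell (median 0.26), with Rac2 at 0.61 ± 0.12 and Dock2 at 0.645 ± 0.15. Of 15 genes of receptor desensitisation, 0 were called in Dp16 and 1, the receptor kinase gene Grk5 (0.31 ± 0.08), rose in Dp16 2xIFNRs. Of 15 genes of chemokine cleavage and presentation, Ctsk (0.68 ± 0.14) and Mmp14 (0.49 ± 0.13), both proteases, rose in Dp16 and Mmp12 (0.63 ± 0.18) in Dp16 2xIFNRs. Of 8 tested relatives outside the naming rule, 0 were called in Dp16 (Gpr35 0.82, adjusted p = 0.0579) and 2 rose in Dp16 2xIFNRs, Gpr35 at 0.99 ± 0.24 and Cmklr1, the chemerin receptor, at 0.55 ± 0.15. Between the duplicated groups 0 genes of these 4 lists were called.

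In whole tissue, more cells of a type and more RNA per cell cannot be told apart. Markers of leukocytes were higher beside the called members that rose, while Cxcl14 fell. The summed level of 20 macrophage and dendritic cell markers was 320.8 to 392.2 CPM in Dp16 and 309.6 to 403.1 CPM in Dp16 2xIFNRs, against 205.4 to 292.2 CPM in wild-type, with no overlap with wild-type. Of these 20, 12 rose in Dp16 and 16 in Dp16 2xIFNRs, and 0 fell. The lysozyme gene Lyz2 had log2 folds of 1.11 and 1.02 in the 2 groups, against list medians of 0.59 and 0.655. Folds of the 20 ran from -0.03 to 1.18 in Dp16 and from 0.08 to 1.18 in Dp16 2xIFNRs. Csf1r, another marker of the list, had similar medians of 59.8 CPM in Dp16, 67.1 CPM in Dp16 2xIFNRs and 61.6 CPM in wild-type. The 20 T and NK cell markers summed to 20.75 to 36.27 CPM in Dp16 and 17.87 to 25.06 CPM in Dp16 2xIFNRs, against 12.48 to 19.17 CPM in wild-type, and of 18 tested, 5 rose in Dp16 and 2 in Dp16 2xIFNRs. Dp16 replicate 3, the library with the highest Ccl5, Ccl6 and Cxcl9, also had the highest sums of both lists in its group. The same library was highest in its group for B and plasma cell (942.6 CPM), fat (280.4 CPM) and endothelial markers (1041 CPM). It was lowest for kidney tubule and glomerulus markers (14150 CPM), so its difference was not limited to leukocyte lists.

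B and plasma cell markers summed to 354.7 to 942.6 CPM in Dp16 and 284.1 to 707.4 CPM in Dp16 2xIFNRs, against 189.6 to 329.8 CPM in wild-type, and of 12 tested, 2 and 1 rose. Neutrophil markers were low, at 3.025 to 6.132 CPM in Dp16, 2.563 to 4.854 CPM in Dp16 2xIFNRs and 1.398 to 4.859 CPM in wild-type, and of 5 tested, 2 rose in each group. The markers did not move alike. Csf3r had medians of 1.63, 1.59 and 0.639 CPM in Dp16, Dp16 2xIFNRs and wild-type, and Ltf 0.867, 0.966 and 0.444 CPM. S100a8 and S100a9 overlapped between groups, with their highest values in wild-type (1.45 and 1.33 CPM). Of 6 tested markers of mast cells, basophils and eosinophils, 1 rose in each group. Markers of lymph node and of endothelium gave 0 calls in either comparison, of 6 and 10 tested. Fat markers gave 1 rise in Dp16 and 2 falls in Dp16 2xIFNRs, of 8 tested, and adrenal markers 0 calls in Dp16 and 1 fall in Dp16 2xIFNRs, of 2 tested. Adrenal markers summed to 3.554 to 9.249 CPM in Dp16, 2.95 to 4.824 CPM in Dp16 2xIFNRs and 2.78 to 64.78 CPM in wild-type. The 64.78 CPM came from wild-type replicate 5 alone, with the next wild-type library at 6.003 CPM. That library is part of both comparisons with wild-type. In each list 0 of the markers were at 0 in all libraries. The part of these cell types in the chemokine differences was not tested.

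Some values carry a limit from neighbouring or similar genes. Exons of Ackr1 overlap those of Cadm3 on the same strand over 25.7% of their length, with 89 counts for Ackr1 and 938 for Cadm3 over all libraries. Those of Ccr9 overlap Gm17200 on the same strand over 2.6%. Overlaps on the opposite strand are a limit as well, since the strand setting of the counting is not given in the sources used here. Exons of Cxcl16 overlap those of Zmynd15 on the opposite strand over 18.3% of their length, those of Xcl1 overlap Gm20743 over 18.7%, and those of Cxcl10 overlap Art3 over 5.9%. Exons of Ackr4 overlap Acad11 over 8.9%, those of Cxcr5 overlap Bcl9l over 3.3% and those of Ccl25 overlap Elavl1 over 2.7%. These 3 partners had 266299, 55487 and 60440 counts over all libraries, against 527 for Ackr4, 234 for Cxcr5 and 3341 for Ccl25. Exons of Ccr9 overlap AC165425.1 over 18.8% and Slc6a20a over 0.2%. These had 20 and 19686 counts over all libraries, against 202 for Ccr9. Ccl21a shares 30.8% of its 50-base windows with Ccl21b, and Ccl27a shares 8.6% with Ccl27b. Shared windows were looked for among the members only, so other similar genes were not checked.

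The remaining tested members had wide errors or small folds in both comparisons with wild-type. Ccl4, Ccl12, Ccl22, Ccl24, Cxcl1, Cxcl13, Xcl1, Ccr7, Cxcr5, Cxcr6 and Xcr1 had adjusted p values of at least 0.171, as did Ccl28, Cxcr4 and Cx3cl1. Ccl22, a ligand of Ccr4 made by dendritic cells, had log2 folds of 0.92 ± 0.36 in Dp16 and 0.86 ± 0.36 in Dp16 2xIFNRs. The B cell attractant Cxcl13 had folds of 0.65 ± 0.34 and 0.415 ± 0.34 in the same order, and its receptor Cxcr5 had 0.66 ± 0.55 and -0.01 ± 0.55. Xcr1, a receptor of cross-presenting dendritic cells, had 0.46 ± 0.28 and 0.315 ± 0.28, and its ligand Xcl1 had 0.205 ± 0.54 and 0.07 ± 0.54.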

How the data were processed

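PolyA RNA of 18 whole kidneys was sequenced from strand-specific paired-end libraries, per the labels' protocols. The authors deposited raw counts per gene and, separately, RPKM values whose making is not stated. The submitters' processing notes name bcl2fastq, FastQC 0.11.5, HISAT2 2.1.0, SAMtools 1.5, HTSeq 0.6.1 and build GRCm38. The strand setting is not given in the sources used here. Every column of per-sample values was used.

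Counts entered edgeR 4.0.16 (R 4.3.3), whose quasi-likelihood test was run on 1 fit of 18 libraries with group and sex, TMM scaling and filterByExpr (minimum count 10, minimum total 15), which left 17575 genes. Two-sided p values were adjusted over all of these (Benjamini-Hochberg), and a gene was called at an adjusted p under 0.05. SEs of log2 folds are approximate, from the fold and its F statistic. The biological variation between replicates was 16.8% (coefficient of variation). Interactions came from a fit with the product of group and sex. Steps were tested on simulated counts.

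Alternatives were RLE size factors, no filter, an average log2 CPM of at least 1, no sex term, DESeq2 1.42.0, the sample number as a block, 2 groups alone, limma-voom (limma 3.58.1) with the last number of the description label as a random block, limma-trend on log2(RPKM + 0.1) and each library left out. Members and the 14 lists of other genes were chosen with earlier results of these data known. Values per library are given for members called in any comparison, the 10 of highest mean RPKM and those of smallest p among the uncalled. Some genes that enter the counts are not reported here by name. Libraries are taken as separate animals because the labels number them as separate samples, and p values measure the spread between them. The last number of the description label takes 12 values over the 18 libraries. It differs between the 6 libraries of a group, but some values are shared across genotypes, and its meaning is not stated. With it as a random block, the consensus correlation was 0.078. Gene positions are from GENCODE M21 and promoters from RefSeq (GRCm38.p6).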

Additional observations from a re-analysis of the deposited data

Results flagged for a closer look

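In 117 groups of 6 libraries (39 tested members in 3 genotypes, on log2(CPM + 0.1)), 5 held a library whose gap to its nearest neighbour exceeded Dixon's critical value of 0.625 times the group's range, where chance gives about 1 in 20 groups. Ccr2 was 9.71 CPM in Dp16 2xIFNRs replicate 1, a male, against 6.85 CPM in the next library of that group. Ccl27a was 3.24 CPM in the same library, against 2.75 CPM in the next. Ccr7, the receptor of Ccl19 and Ccl21a, was 0.209 CPM in Dp16 replicate 4, against 0.676 CPM in the next lowest. Cxcr4 was 2.65 CPM in wild-type replicate 3, against 4.83 CPM in the next lowest. Xcl1 was 0 CPM in Dp16 replicate 1, against 0.193 CPM in the next lowest. Without Dp16 2xIFNRs replicate 1, Ccr2 was still called in Dp16 2xIFNRs against wild-type.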

How the results depend on the processing

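For Dp16 against wild-type, where 5 members were called, the count was 3 with RLE size factors (Ccl5, Ccl9 and Cxcl14), 1 with no sex term (Ccl9) and 2 with the 2 groups alone (Ccl9 and Cxcl14). It was 4 to 7 under the other planned fits, and 1 to 5 with each library left out. For Dp16 2xIFNRs against wild-type the count of 5 became 2 with no sex term (Cx3cr1 among them), and was 5 or 6 under the others, also with each library left out. Between the duplicated groups it was 0 throughout, also with each library left out (0 to 0), as in both interactions. For males against females it was 7 to 9 with each library left out. Ccl9 in Dp16 and Cx3cr1 in Dp16 2xIFNRs were called under 27 of 27 alternatives, with the highest adjusted p at 0.0264 and 0.0339. In Dp16, Ccl5 was called under 21 of 27, Cxcl14 under 17, and Ccl6 and Cxcl9 under 9 each. Of 1689 results of single genes under an alternative, 1615 kept their direction and side of the threshold, 55 lost a call, 19 gained 1 and 0 reversed, with changes of sign in uncalled genes counted as unchanged. The cause was not tested.

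Of 18 pairs of libraries with the same sample number, 7 had deviations correlated above 0.1 (range -0.165 to 0.202). Pairs with unlike numbers were not compared, so these values cannot decide whether the numbers pair the libraries. With the replicate block, 6 members were called in Dp16 (adding Cxcr3), 5 in Dp16 2xIFNRs and 0 between the duplicated groups, and 7 in males against females, 5 of them shared with the fit without the block. Depth limits the 21 members under the filter, which had at most 27 counts in any library.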
